A study of Bos taurus with 9 samples.

Results

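The genes described here carry out or regulate the slow adaptation of a cell to a salty environment. They were the 6 genes AKR1B1, SLC38A2, SLC6A6, SGK1, AQP1 and PNPLA6, chosen by name with earlier results of these data known. Every probe set (a group of short array probes for a transcript) annotated to only 1 of these symbols was taken. This gave 12 probe sets of 24016, for 6 of the 9155 genes that the array names by a single symbol. Of the 12, 10 were bright enough to be tested, at least 1 for each gene.

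The cells were nucleus pulposus cells, from the gelatinous core of the intervertebral disc, isolated from the tail discs of young calves (Bos taurus) and cultured with fetal bovine serum. Added salt raised the medium to 500 mOsm/kg for 5 h in 3 cultures (salt 5 h) and for 24 h in 3 others (salt 24 h), and 3 cultures stayed untreated (control). The comparisons ask which transcripts answer early and late to this hyperosmotic stress. The labels number the biological replicates 1 to 3 and do not say whether calves were shared or pooled, so a p-value here covers only the spread of these cultures. No time is given for the controls, which served both time points, so time in culture and salt cannot be told apart.

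When the fluid around a cell becomes hyperosmotic, water leaves and the cell shrinks. Ions taken up first restore the volume, and over hours they are replaced by organic osmolytes, small solutes that do not disturb proteins: sorbitol, made from glucose by aldose reductase, and inositol, betaine, taurine, glycerophosphocholine and neutral amino acids. The transcription factor NFAT5 (TonEBP) drives many of the genes concerned, and nucleus pulposus cells meet this stress daily, because the proteoglycans of the disc hold salt and water whose concentration changes with load.

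Array medians ran from 67.1 to 84.5 in intensity. The 3 arrays numbered 3, 1 from each group, stood apart from the other 6 on the first principal component (47.7% of the variance). Same-numbered arrays deviated together, but the main fit had no term for the array number. An adjusted p given without mention of the block is from that fit and ignores the pairing. A second fit took the number as a block, treating it as pairing the cultures. Its adjusted p is printed for the 6 genes where it changes a call, and its counts for several of the gene and marker lists. Of the nucleus pulposus markers, 9 of 17 had a probe set. Aggrecan, ACAN, lay between 497 and 4026 and BASP1 between 4869 and 6047 over the 9 arrays, while the keratins KRT8 (12 to 23.2) and KRT19 (2.1 to 13.6) were near the floor; 0 of the 6 tested markers were called at 5 h or 24 h. With the block 0 were called at 5 h and 3 at 24 h: ACAN (1.35, adjusted p = 0.00041) and NCDN (0.51, adjusted p = 0.0087) higher, and NRP1 lower (-0.69, adjusted p = 0.018). Of all probe sets, the block called 5.86% at 5 h and 35.8% at 24 h. In bulk cultures, fewer cells of a type and less RNA per cell cannot be told apart.

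Aldose reductase rose late, the amino acid transporter SLC38A2 rose early, and the kinase SGK1 stood higher at 24 h than at 5 h. At 5 h 1 of the 6 genes was called, SLC38A2, against 0.483% of 18012 probe sets (0.233% higher and 0.25% lower). At 24 h 1 of 6 was called, AKR1B1, against 8.61% (4.28% higher and 4.32% lower). For 24 h minus 5 h AKR1B1 and SGK1 were called higher and SLC38A2 lower, against 14.2% (8.01% higher and 6.15% lower). The median log2 difference of the 6 genes, each by its brightest probe set, was 0.078 at 5 h, 0.83 at 24 h and 0.83 for 24 h minus 5 h, where the medians over all probe sets were -0.030, 0.023 and 0.057.

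With the replicate block, AKR1B1 and SLC38A2 were called higher at 5 h, against 5.86% of all probe sets (2.45% higher and 3.41% lower). All of the 6 but SLC6A6 were called higher at 24 h by their brightest probe sets, against 35.8% (18.3% higher and 17.5% lower). The dimmer PNPLA6 probe set was called lower there (-0.62, adjusted p = 0.0044 with the block). For 24 h minus 5 h AKR1B1, SGK1, AQP1 and PNPLA6 were called higher and SLC38A2 lower, against 43.8% (24.2% higher and 19.6% lower). Counting groups that did not overlap, 2 of 6 genes were higher at 5 h and 0 lower, against 10.6% of probe sets (4.04% higher and 6.6% lower). At 24 h 3 were higher and 0 lower, against 27.3% (13.9% higher and 13.5% lower), and for 24 h minus 5 h 2 were higher and 1 lower, against 32.4% (18.1% higher and 14.3% lower).

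**Figure D1:**
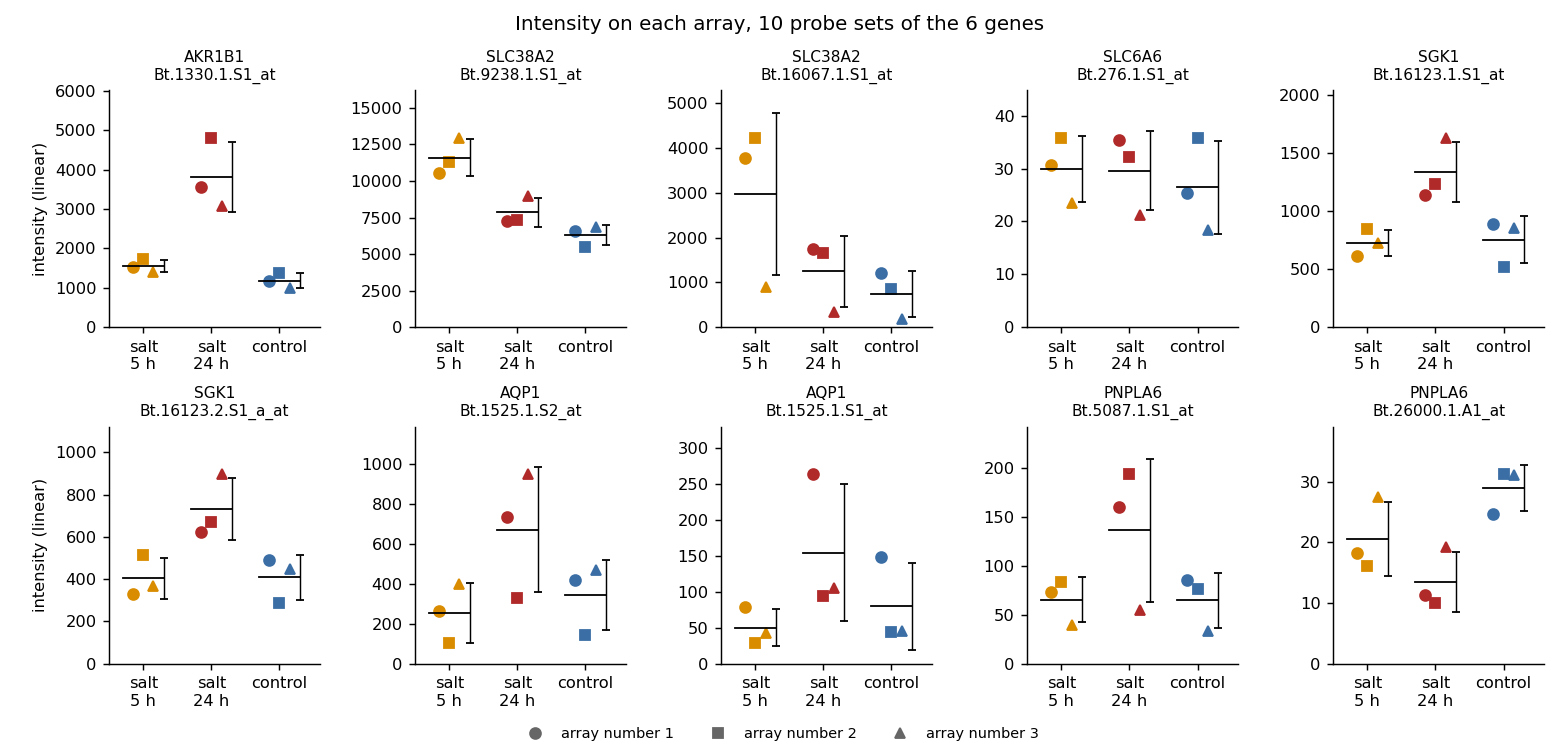
Linear intensity on each array for the 10 tested probe sets of the 6 genes, by group, the brightest of a gene first; points are arrays, their shape gives the array number, the line is the mean and the bar its SD (n = 3). AKR1B1 is highest on all 3 salt 24 h arrays (3087 to 4809), SLC38A2 on all 3 salt 5 h arrays by its brighter probe set (10516 to 12947), and several probe sets keep the same order of array numbers in each group.

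AKR1B1 encodes aldose reductase, the enzyme that turns glucose into sorbitol. Its 1 probe set read 1536, 1720.8 and 1415.7 in intensity in the salt 5 h cultures, 3570.1, 4809.4 and 3086.9 in the salt 24 h cultures, and 1162.6, 1380.5 and 999.7 in control. All 3 salt cultures lay above all 3 controls at both times, and the 24 h values lay above the 5 h values. At 24 h AKR1B1 rose by 1.67 ± 0.19 on the log2(intensity + 16) scale (SE; adjusted p = 0.0038), a 3.24-fold higher mean intensity. The 3 same-numbered differences at 24 h were 1.61, 1.79 and 1.61, so the size hardly varied between cultures.

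At 5 h the log2 difference of AKR1B1 was 0.40, with a 95% interval from -0.018 to 0.82 (adjusted p = 0.74, and 0.028 with the replicate block). The same-numbered differences were 0.40, 0.31 and 0.50, all upward. AKR1B1 was 1.27 ± 0.19 higher at 24 h than at 5 h (adjusted p = 0.0052). Its calls at 24 h against control and against 5 h held without any 1 of the 9 arrays, with adjusted p of at most 0.031.

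SLC38A2 encodes SNAT2, a sodium-coupled carrier of small neutral amino acids (system A) through which shrunken cells load amino acids as osmolytes. Its brighter probe set read 10516, 11327 and 12947 in the salt 5 h cultures, 7239, 7314 and 8982 in the salt 24 h cultures, and 6578, 5507 and 6840 in control. All salt 5 h values lay above all others, and all salt 24 h values lay above the controls. SLC38A2 rose by 0.88 ± 0.12 at 5 h (adjusted p = 0.030). The highest intensity on any array was 15435, so the 5 h values were near the top of the range and the difference may be understated. At 24 h the log2 difference against control was 0.31 ± 0.12 (adjusted p = 0.16, and 0.0099 with the block).

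At 24 h SLC38A2 was lower than at 5 h, with a log2 difference of -0.56 ± 0.12 (adjusted p = 0.020). Leaving out any 1 array other than salt 24 h replicate 3 ended the call at 5 h, with log2 differences from 0.78 to 0.95 and adjusted p from 0.050 to 0.11. It also ended with each array centred on its median (adjusted p = 0.062), without a variance trend (0.067) or with only the 6 arrays compared (0.10). The lower level at 24 h than at 5 h lost its call without salt 24 h replicate 1 or 2 or salt 5 h replicate 2 or 3, with values from -0.58 to -0.48 and adjusted p from 0.054 to 0.080.

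The second probe set of SLC38A2 had the same order of group means with a wider span. It read 3783, 4229 and 906.4 in the salt 5 h cultures, 1752.6, 1655.2 and 337.1 in the salt 24 h cultures, and 1203.9, 860.7 and 189 in control. Replicate 3 was far the lowest of each group, so the groups overlapped. The log2 difference at 5 h was 2.03 ± 0.88, a 3.96-fold higher mean intensity (adjusted p = 0.68, and 6.8e-05 with the block), and the same-numbered differences were 1.64, 2.28 and 2.17. Over the 6 arrays numbered 1 and 2 alone, a choice made after seeing the data, it was 1.96 (adjusted p = 0.010). At 24 h it was 0.75 ± 0.88 against control (adjusted p = 0.71, and 0.0014 with the block) and -1.28 ± 0.88 against 5 h (adjusted p = 0.40, and 7.9e-05 with the block). Over the 9 arrays the log2 values of the probe sets correlated at r = 0.36, and the same-numbered differences of the brighter one were 0.68, 1.04 and 0.92.

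SGK1 encodes a serine/threonine kinase whose transcript is known to answer to cell shrinkage and glucocorticoids, and which keeps sodium channels and other transporters at the cell surface by restraining the ubiquitin ligase NEDD4L. Its brightest probe set read 617.1, 842.8 and 721.9 in the salt 5 h cultures, 1141.5, 1237 and 1630 in the salt 24 h cultures, and 890.4, 519.3 and 851 in control. The 24 h cultures lay above all others, while the 5 h and control cultures overlapped. At 24 h the log2 difference against control was 0.83 ± 0.24, a 1.77-fold higher mean (adjusted p = 0.063, and 0.0088 with the block). The second probe set gave 0.83 ± 0.25 (adjusted p = 0.081, and 0.017 with the block) and followed the first with r = 0.99 over the 9 arrays.

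Between the salt groups SGK1 was 0.86 ± 0.24 higher at 24 h than at 5 h (adjusted p = 0.043). This call ended without control replicate 3 or any 1 of the 6 salt arrays, with values from 0.71 to 0.97 and adjusted p from 0.052 to 0.15. The second probe set gave 0.83 ± 0.25 and was not called (adjusted p = 0.061, and 0.013 with the block). The call of the first also ended with no filter (adjusted p = 0.052), over the arrays numbered 1 and 2 alone (0.71, adjusted p = 0.099) and with arrays centred on the 75th percentile (0.83, adjusted p = 0.054). With each array centred on its median it was 0.70 (adjusted p = 0.11); the array medians themselves were 0.15 higher at 24 h than at 5 h on this scale. At 5 h the cultures went different ways: the same-numbered differences were -0.52, 0.68 and -0.23, with a mean of -0.023. Another SGK1 probe set lay below the filter, at 3.7 to 11.2, and was not tested.

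AQP1 encodes aquaporin 1, a water channel of the plasma membrane. Its brightest probe set read 261.5, 101.9 and 400.4 in the salt 5 h cultures, 734.7, 329.4 and 949.6 in the salt 24 h cultures, and 419.8, 143 and 469 in control. Replicate 2 was lowest and replicate 3 highest in each group, so the groups overlapped in every comparison. The log2 difference was -0.43 ± 0.60 at 5 h (adjusted p = 0.9998, and 0.067 with the block). At 24 h it was 0.97 ± 0.60 (adjusted p = 0.40, and 0.00037 with the block). Within array numbers it was -0.65, -0.43 and -0.22 at 5 h and 0.78, 1.12 and 0.99 at 24 h. Each salt 5 h culture was thus below, and each salt 24 h culture above, the control of the same number. The cultures of the 2 times were different ones, and the fall at 5 h was not called with or without the block.

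For 24 h minus 5 h, AQP1 stood at 1.40 ± 0.60 (adjusted p = 0.16, and 4.8e-05 with the block). The second AQP1 probe set had the same signs within each array number, with -0.80, -0.43 and -0.058 at 5 h and 0.76, 0.87 and 0.99 at 24 h. Its 24 h values of 263.3, 94.2 and 105 all lay above the 5 h values of 78.2, 28.7 and 42.7; the log2 difference was 1.30 ± 0.50 (adjusted p = 0.12, and 0.00019 with the block). Another AQP1 probe set, at 1.2 to 9.3, was not tested.

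**Figure D2:**
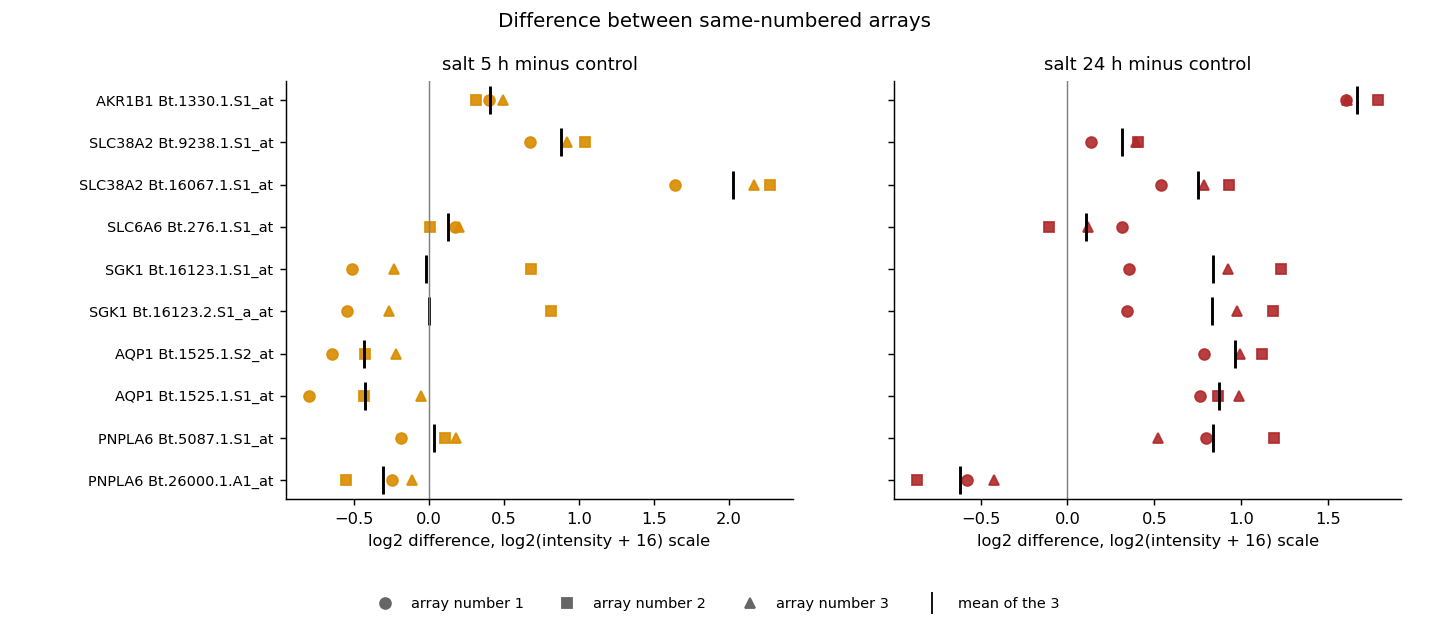
Log2 difference between arrays of the same number, salt 5 h minus control on the left and salt 24 h minus control on the right, for the 10 tested probe sets; the bar is the mean of the 3. All 3 AQP1 differences lie below 0 at 5 h (-0.65 to -0.22 for the brightest probe set) and above 0 at 24 h (0.78 to 1.12), while the PNPLA6 probe sets lie on opposite sides at 24 h.

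PNPLA6 encodes neuropathy target esterase, which breaks down lysophosphatidylcholine to glycerophosphocholine, an osmolyte; in mouse kidney cells its transcript is under NFAT5 control. Its brighter probe set read 73.5, 83.2 and 39.4 in the salt 5 h cultures, 160.8, 194 and 54.3 in the salt 24 h cultures, and 85.8, 76.2 and 33 in control. Replicate 3 was the lowest of each group, and its 24 h value lay below 2 of the controls. The log2 difference at 24 h was 0.83 ± 0.45, a 2.10-fold higher mean (adjusted p = 0.33, and 0.0035 with the block), from same-numbered differences of 0.80, 1.19 and 0.52. With the 6 arrays numbered 1 and 2 alone, a choice made after seeing the data, it was 0.99 (adjusted p = 0.021). At 5 h it was 0.032 ± 0.45 (adjusted p = 0.9998).

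The other PNPLA6 probe set went the opposite way. It read 18.2, 16.1 and 27.5 in the salt 5 h cultures, 11.3, 10 and 19.2 in the salt 24 h cultures, and 24.7, 31.3 and 31.1 in control, all near the filter at 17.1. All 24 h values lay below all controls, with a log2 difference of -0.62 ± 0.17 (adjusted p = 0.061, and 0.0044 with the block), and over the 9 arrays its log2 values correlated with those of the brighter probe set at r = -0.82. Without salt 24 h replicate 3 it was called (adjusted p = 0.049). For 24 h minus 5 h the brighter probe set gave 0.80 ± 0.45 (adjusted p = 0.29, and 0.0034 with the block) and the dimmer one -0.31 ± 0.17 (adjusted p = 0.28).

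SLC6A6 encodes the taurine transporter TauT. Its 1 probe set read 30.6, 35.8 and 23.4 in the salt 5 h cultures, 35.4, 32.1 and 21.2 in the salt 24 h cultures, and 25.4, 35.7 and 18.3 in control. The 3 groups overlapped, and replicate 3 was the lowest of each. The log2 difference was 0.12 at 5 h (95% interval from -0.34 to 0.58) and 0.11 at 24 h (from -0.35 to 0.57), with adjusted p = 0.9998 and 0.84, and the block called neither. The probe set was close to the floor, so a change may be understated.

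The genes differed in how far their variation lay between groups or between array numbers. The group accounted for 92.7% of the sum of squares of AKR1B1, 87.9% of the brighter SLC38A2 probe set and 70.7% of the brightest SGK1 probe set, where the median over all tested probe sets was 34.7%. The array number accounted for 58.4% of AQP1, 59.7% of the brighter PNPLA6 probe set, 61.2% of the second SLC38A2 probe set and 81.1% of SLC6A6, where the median over all was 41.8%. The pooled log2 SD within groups was 0.87 for AQP1 and 0.65 for PNPLA6, more than in 95.4% and 90.5% of tested probe sets, and 0.24 for AKR1B1, more than in 42.1%.

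**Figure D3:**
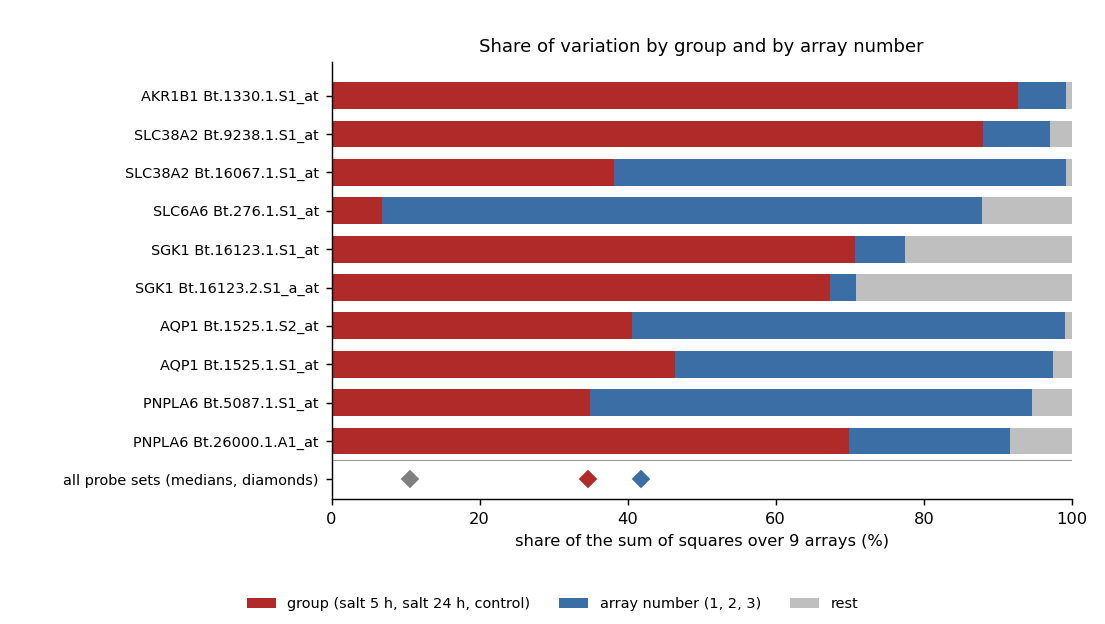
Share of the sum of squares over the 9 arrays, in percent, that lies between groups, between array numbers and in the rest, for the 10 tested probe sets; diamonds give the medians over all tested probe sets. The group share is largest for AKR1B1 (92.7%) and smallest for SLC6A6 (6.81%).

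The wider pathway was read from 9 lists of osmotic adaptation genes, chosen with earlier results of these data known. The lists held 189 genes, of which 79 had a tested single-symbol probe set. At 24 h 8 rose and 2 fell, which is 12.7% called against 8.61% of all probe sets; leaving out the 6 genes above, 7 rose and 2 fell of 73 (12.3%). The median log2 difference was 0.079, against 0.023 over all probe sets. List genes were each read by the brightest probe set, while the share of all probe sets includes dim ones. With the brightness filter at the 50th percentile instead, 7 of 57 list genes and 1475 of 12008 probe sets were called at 24 h, nearly the same share. At 5 h only SLC38A2 was called (1.27% of the 79, against 0.483%). With the block 7 were higher and 1 lower at 5 h, where 2.45% of all probe sets were higher and 3.41% lower. For 24 h minus 5 h 7 were higher and 6 lower (16.5%, against 14.2%). With the block 24 of the 79 were higher and 10 lower at 24 h, where 18.3% of all probe sets were higher and 17.5% lower.

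Of 18 genes that take up, make or break down organic osmolytes, 2 rose and 1 fell at 24 h, against 4.28% and 4.32% of all probe sets. Sorbitol dehydrogenase, SORD, which turns sorbitol into fructose, fell by 0.96 ± 0.16 beside the rise of AKR1B1. Its mean intensity was 20.4 ± 1.85 in salt 24 h cultures and 54.9 ± 6.3 in control (SD, n = 3 each; adjusted p = 0.012), and the groups did not overlap. The call of SORD ended without control replicate 2 (-0.97, adjusted p = 0.052) or salt 24 h replicate 1 (-0.96, adjusted p = 0.056). The inositol monophosphatase IMPA2, which releases free inositol, rose by 0.56 ± 0.14 (50 ± 7.1 in salt 24 h cultures and 28.7 ± 1.9 in control, adjusted p = 0.044). Its call ended without any 1 of the 9 arrays (adjusted p from 0.052 to 0.15), and its size ran from 0.30 to 0.78 over the alternatives. The inositol and betaine carriers SLC5A3 and SLC6A12, the factor NFAT5, the glycerophosphocholine phosphodiesterase GPCPD1 and the carrier SLC38A1 had no single-symbol probe set and were not analysed here.

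Of 7 tested SLC38 and SLC6 carriers, 1 was called at 5 h, SLC38A2, and 0 at 24 h, against 0.483% and 8.61% of all probe sets. With the block 4 of the 7 were higher and 0 lower at 24 h, against 18.3% and 17.5% of all probe sets. They were SLC38A2, SLC38A7 (0.43, adjusted p = 0.022), the creatine carrier SLC6A8 (0.34, adjusted p = 0.046) and the glycine carrier SLC6A9 (0.62, adjusted p = 0.043). Without the block SLC6A9 stood at 0.62 ± 1.02 (adjusted p = 0.82). Between the salt groups SLC38A7, a lysosomal carrier of glutamine and asparagine, was 0.71 ± 0.16 higher at 24 h than at 5 h (adjusted p = 0.021), while SLC38A2 was lower. That SLC38A7 call ended without salt 24 h replicate 1 (0.76) or 3 (0.64) or salt 5 h replicate 1 (0.65), with adjusted p up to 0.088, and with each array centred on its median (0.56, adjusted p = 0.074).

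Among 11 genes of the SGK list, NDRG1, a substrate of SGK kinases, fell by 0.95 ± 0.19 at 24 h (1761 ± 289 in salt 24 h cultures and 3410 ± 579 in control; adjusted p = 0.022). The call ended without control replicate 2 (-0.81) or 3 (-1.02) or salt 24 h replicate 1 (-0.95) or 3 (-0.83), with adjusted p up to 0.090. SGK3, another kinase of the family, stood at 1.19 ± 0.54 (adjusted p = 0.23, and 0.0010 with the block), and NEDD4L at 0.27 ± 0.36 (adjusted p = 0.76). Of 7 aquaporins with a probe set, AQP7 was the only tested one beside AQP1, at -0.077 ± 0.15 at 24 h (adjusted p = 0.85), and the other 5 lay below the filter.

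AKR1C4, an aldo-keto reductase of the steroid- and carbonyl-reducing branch, rose with AKR1B1 in the family of 4 tested. Its mean intensity was 159 ± 93 in salt 24 h cultures and 13.5 ± 9.4 in control, and it averaged 15.6 ± 6.6 at 5 h. The control and 5 h means were below the filter of 17.1, so AKR1C4 was tested only through its 24 h values. The log2 difference was 2.50 ± 0.38 (adjusted p = 0.0088) and was called without any 1 array, but its size ran from 1.45 with a pseudocount of 64 to 3.61 with a pseudocount of 1. A second AKR1C4 probe set gave 0.68 (adjusted p = 0.27), and close relatives in this branch may share probes. AKR1A1, the aldehyde reductase, stood at 0.22 ± 0.15 (adjusted p = 0.45, and 0.047 with the block). PNPLA2, the triglyceride lipase that was the only other patatin-like phospholipase measured, stood at 1.05 ± 0.40 (adjusted p = 0.15, and 0.00090 with the block).

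Of 16 genes listed as NFAT5 targets or as induced by hypertonicity, 5 rose at 24 h and 0 were called lower, against 4.28% and 4.32% of all probe sets: AKR1B1, SLC4A11, TSC22D4, HSPA1A and HSPH1. The list was chosen with earlier results of these data known and holds AKR1B1 and SLC4A11, so its share is a description only. With the block 8 were higher and 2 lower, the chaperone gene HSPA4 (-0.72, adjusted p = 0.00085) and the kinase RPS6KA4 (-0.79, adjusted p = 0.019), against 18.3% and 17.5%. SLC4A11, a membrane transporter, rose by 5.70 ± 0.36 (1741 ± 213 in salt 24 h cultures and 18.5 ± 9.6 in control; adjusted p = 0.00052), and no left-out array ended its call. Its control values were near the filter, so the size depends on the pseudocount (4.45 with 64 and 6.58 with 1). At 5 h it stood at 1.34 ± 0.36 (adjusted p = 0.23, and 0.016 with the block). TSC22D4, of a leucine zipper family that has members responding to osmotic stress, rose by 1.38 ± 0.32, with a mean intensity of 514 ± 151 in salt 24 h cultures and 186 ± 51 in control (adjusted p = 0.033). Without any 1 of the 3 controls or salt 24 h replicate 1 or 2, the value of TSC22D4 was 1.18 to 1.55 and the call ended (adjusted p from 0.064 to 0.12). HSPA1A and HSPH1, chaperone genes, rose by 1.11 ± 0.25 and 0.39 ± 0.10 (adjusted p = 0.031 and 0.048). Of the 6 tested probe sets of HSPA1A 3 were called higher and 2 lower, and the HSPH1 call ended with each of the 9 arrays left out (adjusted p from 0.059 to 0.14). HSPA1A lost its call without control replicate 2 (0.95) or 3 (1.09), salt 24 h replicate 1 (1.23) or 2 (0.88) or salt 5 h replicate 1 (1.11), with adjusted p up to 0.12. ATP1B1, the sodium pump subunit, stood at 0.078 ± 0.26 (adjusted p = 0.93).

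In osmosensing signalling 1 of 14 genes rose at 24 h, against 4.28% of all probe sets. It was the phospholipase PLCG1, which rose by 0.66 ± 0.12 (1096 ± 57 in salt 24 h cultures and 689 ± 18 in control, adjusted p = 0.015). Its second probe set gave 0.19 (adjusted p = 0.93), and the call ended without control replicate 2 (0.64) or 3 (0.68) or salt 24 h replicate 1 (0.68), with adjusted p up to 0.063. PLCG1 was also 0.71 ± 0.12 higher at 24 h than at 5 h (adjusted p = 0.0077), and this held without any 1 array. With the block 2 of the 14 were higher and 4 lower at 24 h, against 18.3% and 17.5% of all probe sets. The higher were PLCG1 and the kinase FYN (0.44, adjusted p = 0.0073), and the lower were MAP2K3 (-0.68, adjusted p = 0.00058), PARP1 (-0.46, adjusted p = 0.0084), DHX9 (-0.49, adjusted p = 0.012) and CCM2 (-0.55, adjusted p = 0.014). Of 13 genes of cell volume ion transport 0 were called at 24 h, against 8.61% of all probe sets. With the block 1 of the 13 was higher and 2 lower, a share below the 35.8% of all probe sets. Between the salt groups 3 further genes of the lists were lower at 24 h than at 5 h. The helicase DHX9 stood at -0.80 ± 0.20 (adjusted p = 0.029), the p38 activator MAP2K3 at -0.68 ± 0.19 (adjusted p = 0.047) and the kinase VRK1 at -1.14 ± 0.27 (adjusted p = 0.025). Each of these calls ended without salt 24 h replicate 1 or salt 5 h replicate 1, among other single arrays.

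**Figure D4:**
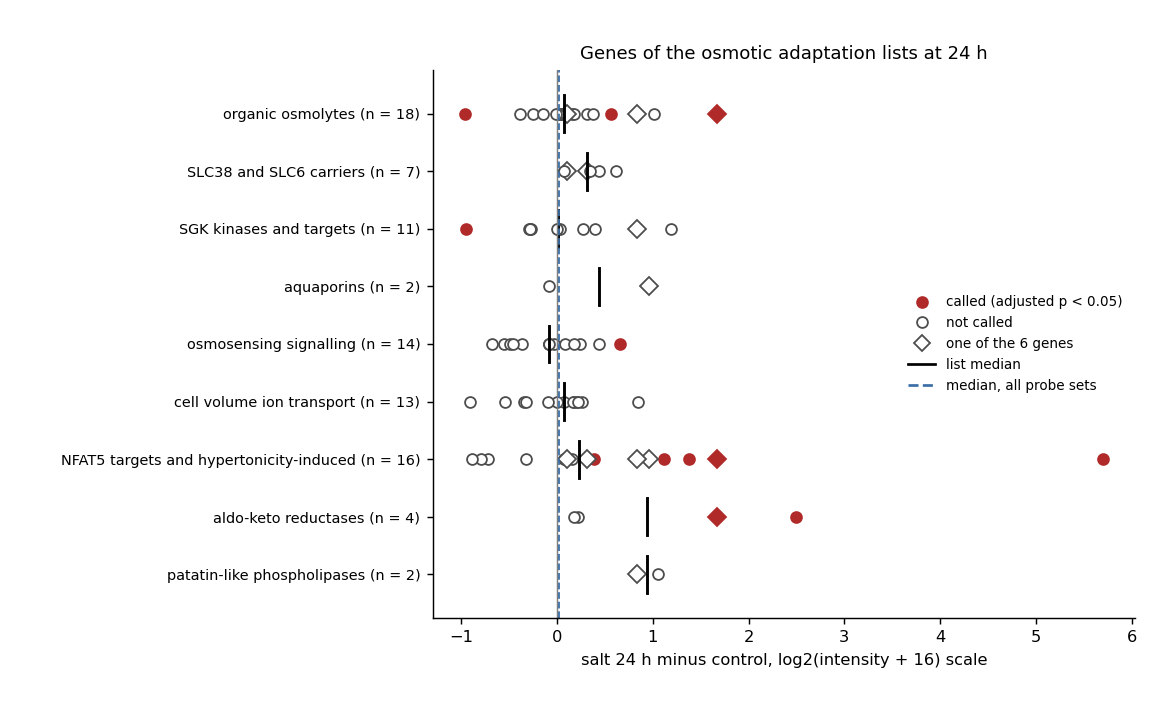
Salt 24 h minus control on the log2(intensity + 16) scale for the tested genes of the 9 lists, each gene by its brightest probe set; filled points were called, diamonds are the 6 genes described here, black bars are list medians and the dashed line the median of all probe sets. AKR1B1 at 1.67 and SLC4A11 at 5.70 stand far to the right, and SORD (-0.96) and NDRG1 (-0.95) to the left; a gene in several lists appears in each.

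Likeness of pattern was measured as Pearson's r over the 9 arrays after the mean of each array number was taken out, among 10769 or 10770 named probe sets; the points share arrays and 3 groups, and r is given as a description. AKR1B1 was most like SLC4A11 (r = 0.999), LZTS3 (0.997) and PRKRA (0.997), and 839 probe sets exceeded 0.9 with it. SLC38A2 was most like CHD2, COX6B2 and ETS1 (0.977 to 0.981), with 73 over 0.9. SGK1 was most like MIEN1, TRAPPC3 and AP1G1 (0.983 to 0.993), with 406 over 0.9. AQP1 was most like MAGED2, ZMYM3 and TRIM41 (0.996 to 0.999), with 1242 over 0.9, and PNPLA6 was most like GIT2, SHPK and MMD (0.991 to 0.996), with 882 over 0.9. SLC6A6 was most like RELL2, BCNT2 and ADCY6 (0.942 to 0.957), with 10 over 0.9. With the array numbers left in, r was 0.79 to 0.94 for the AKR1B1 genes and 0.82 to 0.91 for those of SLC38A2, 0.44 to 0.92 for those of SGK1, 0.67 to 0.97 for those of AQP1, 0.052 to 0.98 for those of PNPLA6 and -0.58 to 0.91 for those of SLC6A6. The closest match of PNPLA6, GIT2, was the one at 0.052.

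Markers of other cell types were read beside the late differences. Endothelial markers, whose cells carry AQP1, summed to 209 to 251 in intensity in salt 5 h cultures, 225 to 275 in salt 24 h cultures and 207 to 267 in control; 9 of 9 had a probe set, 6 were tested, 0 were called against control, and VWF and TIE1 were among those below the filter. As the 9 together summed to at most 275, these markers were dim. With the block, under which AQP1 was called at 24 h, 3 of the 6 were called there, against 35.8% of all probe sets (18.3% higher and 17.5% lower). EMCN (0.52, adjusted p = 0.0092) and TEK (0.49, adjusted p = 0.015) were higher and CLDN5 lower (-0.62, adjusted p = 0.0041), while PECAM1 stood at 0.053 and CDH5 at -0.00057. The 6 measured leukocyte markers of 8 summed to 241 to 250 in salt 5 h cultures, 429 to 467 in salt 24 h cultures and 221 to 247 in control, with CD14 the 1 called at 24 h (1.43) and PTPRC at 0 to 37 over the arrays. Muscle markers, 5 of 6 with a probe set, summed to 1165 to 3431 in salt 5 h cultures, 2152 to 3514 in salt 24 h cultures and 925 to 1102 in control, with creatine kinase, CKM, the 1 called at 24 h (1.99, adjusted p = 0.032) and most of the sum; at 5 h CKM stood at 1.57 (adjusted p = 0.28, and 0.010 with the block). Skeletal actin, ACTA1, stood at -0.60 at 24 h with no overlap (adjusted p = 0.16, and 0.0023 with the block), TNNT3 at -0.16 and DES at 0.26, and MYH1 lay below the filter. Annulus and tendon fibroblast markers, 5 of 7, summed to 14242 to 14743 in salt 5 h cultures, 18705 to 21434 in salt 24 h cultures and 13864 to 20975 in control. Of the 4 tested, COL12A1 (1.73) and THY1 (0.74) were called higher at 24 h and 0 lower, against 4.28% and 4.32% of all probe sets. With the block 2 of the 4 were higher and 1 lower, against 18.3% and 17.5%. No measured marker of these lists was at 0 on all arrays of a group, and the part of any of these lists in the late differences was not tested. The log2 ratio of the 3-prime to the 5-prime actin probe set, which bears on how intact the RNA was, averaged 2.68 ± 0.28 at 5 h, 2.99 ± 0.28 at 24 h and 2.69 ± 0.18 in control (SD, n = 3 each). The same ratio for GAPDH averaged 0.0063 ± 0.045 at 5 h, 0.025 ± 0.016 at 24 h and -0.084 ± 0.092 in control. The part of RNA integrity in the differences was not tested.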

How the data were processed

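Total RNA of the 9 cultures was hybridised to 1-colour Affymetrix arrays. The authors summarised probe sets with PLIER in Expression Console, as the submitters' processing notes name them, and deposited linear intensities; version, settings and any scaling between arrays are not stated in the labels. The value table holds 24128 probe sets, and 112 manufacturer controls were left out. Of the other 24016, 13292 carry 1 gene symbol in the platform annotation, 86 several and 10638 none. The gene IDs of all 6 members matched the RefSeq gene table of assembly ARS-UCD2.0. No 2 arrays held identical values.

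Intensities were taken as log2(value + 16), which understates changes of dim probe sets, with no further normalization. Probe sets with a mean under the 25th percentile (an intensity of 17.1) were left out, leaving 18012. The linear model (limma 3.58.1, R 4.3.3, lmFit, then eBayes with trend) had a mean per group and took in every array. Every adjusted p is limma's, Benjamini-Hochberg adjusted over all probe sets within a comparison, and called under 0.05. A gene was represented by its brightest single-symbol probe set, and levels were not set against each other between probe sets. The fit was tested on simulated data with independent noise on each array. That simulation lacked the shared deviations of same-numbered arrays, so it does not show how the fits behave with them.

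Named were all member probe sets, up to 4 called genes of each list, 8 genes fixed by name, and for each member the 3 genes of highest likeness; SGK3, PNPLA2, AKR1A1, AQP7, the cell type markers quoted, list genes called only with the block and the genes of the closing observations were chosen after their values were seen. Members and lists were chosen with earlier results of these data known. The block alternative took the replicate number as a factor, since the deviations of same-numbered arrays from their group means correlated at all 3 numbers (r from 0.56 to 0.90); the numbers are the labels', and the pairing is read from the data. Other alternatives were pseudocounts of 1 and 64, no filter or one at the 50th percentile, centring on the array median or 75th percentile, quantile normalization, only the 6 arrays compared, no trend, and each array left out. The number of arrays limits the precision. A planned search of promoters was not analysed here.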

Additional observations from a re-analysis of the deposited data

Results flagged for a closer look

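The response at 24 h differed from that at 5 h for 3 of the genes by the test of the difference. It was 1.27 on the log2 scale for AKR1B1 (adjusted p = 0.0052), -0.56 for the brighter SLC38A2 probe set (adjusted p = 0.020) and 0.86 for the brightest SGK1 probe set (adjusted p = 0.043). Both times share the control cultures, and the difference was fitted between the 2 salt groups. AQP1 was picked out because all 3 same-numbered differences were below 0 at 5 h and above 0 at 24 h in both tested probe sets. Its 24 h minus 5 h values were 1.4 and 1.3, and neither was called in the main fit (adjusted p = 0.16 and 0.12). Under the block the adjusted p was 4.8e-05 and 0.00019. The block fit rests on the same same-numbered differences by which AQP1 was picked, and that choice fixed their direction. Its p-values are therefore no separate test of this pattern. How many of all probe sets share the pattern was not counted. Groups of 3 arrays were too small for the check on outlying samples.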

How the results depend on the processing

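Over the 10 tested probe sets, 3 comparisons and their alternatives, 518 of 593 values kept their direction and their side of the threshold, 26 lost a call, 23 gained one and 26 changed sign, none of these called. Most of the 593 had no call to lose, and all losses fell on SLC38A2 and SGK1. The calls of SLC38A2 at 5 h and of SGK1 for 24 h minus 5 h each held in 9 of 20 alternatives. That of SLC38A2 for 24 h minus 5 h held in 16 of 20. AKR1B1 kept its 24 h calls throughout (1.49 to 1.81 against control). The replicate block raised the calls to 1056 of 18012 probe sets at 5 h, 6452 at 24 h and 7884 for 24 h minus 5 h, to 2, 5 and 5 of the 6 genes, and to 8, 34 and 32 list genes (1, 10 and 13 without the block). Fitting only the 6 arrays compared gave 13 probe sets at 5 h and 801 at 24 h, and 0 genes at 5 h. Median centring gave 57 probe sets, 0 genes and 0 list genes at 5 h, and eBayes without a trend 0 genes. The arrays numbered 1 and 2 alone, chosen after seeing the data, called 2 genes at 24 h. Leaving out 1 array gave 15 to 127 probe sets and 0 to 1 genes at 5 h, 296 to 1540 probe sets and 1 to 1 genes at 24 h, and 855 to 2431 probe sets and 1 to 3 genes for 24 h minus 5 h. Sign changes of uncalled values at 5 h: SGK1 was 0.0036 and 0.062 with the arrays centred on the 75th percentile and the median and 0.082 over the arrays numbered 1 and 2, its second probe set 0.024, 0.082 and 0.13, and 0.011 after quantile normalization; PNPLA6 was -0.040 over the arrays numbered 1 and 2. SLC6A6 was 0.017 there for 24 h minus 5 h. Leaving out 1 array moved values across 0 within these ranges. At 5 h they were -0.94 to 0.075 and -0.72 to 0.047 for the brighter and dimmer AQP1 probe sets, -0.30 to 0.29 for PNPLA6, -0.27 to 0.11 and -0.23 to 0.14 for the SGK1 probe sets, and -0.019 to 0.28 for SLC6A6. At 24 h they were -0.028 to 1.51 for the second SLC38A2 probe set and -0.036 to 0.26 for SLC6A6, and for 24 h minus 5 h -0.12 to 0.12 for SLC6A6. The causes were not tested.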

Other observations

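Values not described above, chosen after they were seen, concern other routes to the same solutes. Cysteine dioxygenase, CDO1, the first enzyme from cysteine towards taurine, averaged 922 ± 225 in salt 5 h cultures, 1397 ± 374 in salt 24 h cultures and 689 ± 188 in control (intensity, SD, n = 3 each). All 3 salt 24 h cultures lay above all controls, with a log2 difference of 1.01 ± 0.28 (adjusted p = 0.061, and 7.9e-05 with the block). SLC12A2, the sodium-potassium-chloride cotransporter NKCC1 of volume regulation, averaged 379 ± 190 in salt 24 h cultures and 193 ± 54 in control, a log2 difference of 0.85 ± 0.32 (adjusted p = 0.145, and 0.022 with the block).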
